A study of Homo sapiens with 18 samples.

Results

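The genes described here are 37 genes of the lysosome and its proton pump, chosen by symbol from the 38055 genes of a whole transcriptome table of HCT116 cells, an epithelial line from a human colorectal carcinoma. They are 3 transcription factors of the TFEB family, 6 lysosomal membrane proteins, 17 hydrolases or cofactors of the lumen and 11 proteins of the proton pump, and all 37 were listed in the table and passed the filter on low values. The study followed RNA in HCT116 cells as cultures filled and overfilled the dish. Wild-type cells in McCoy's 5A medium with fetal bovine serum were taken on day 3 at 50% confluency and on day 5 at 250% confluency, with 3 libraries per day labelled as biological replicates. All 6 libraries came from 1 cell line with no added agent or altered gene, and time in culture and density changed together between the groups, so the effects of age of the culture and of crowding cannot be told apart.

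Lysosomes are acidic compartments in which proteins, glycans, glycogen, lipids and nucleic acids taken up by endocytosis or delivered by autophagy are broken down. A rotary proton pump, the V-ATPase, acidifies them: a cytosolic V1 sector hydrolyses ATP and a membrane V0 sector carries the protons, and the same pump also serves other acidic organelles. TFEB, TFE3 and MITF are related basic helix-loop-helix leucine zipper factors that bind E-box sequences near lysosomal genes, and mTORC1, a kinase held at the lysosome surface when amino acids are plentiful, keeps TFEB and TFE3 in the cytoplasm. Their activity is set largely by phosphorylation and location, which RNA levels do not report.

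Each value below is the number of reads on a gene divided by a factor for its library, called the normalized value, and values are given for replicates 1, 2 and 3 in that order. Between 27470978 and 56689369 reads fell on genes per library, and the shallowest library was day 3 replicate 3, in which 1 read was worth 1.42 normalized units. The days were compared with limma on log2 of the value plus 1, over the 20129 genes that reached 10 units in 3 or more libraries, and a gene was called at an adjusted p under 0.05. A fold is the ratio of the mean values of the days, and a log2 fold change is the fitted difference of day 5 minus day 3 with its standard error (SE). Of all genes tested, 56.9% were called, 29.3% as higher on day 5 and 27.6% as lower, so a call alone is common in this comparison. Because each library was sampled from many cells, a change in the RNA per cell and a change in the share of cells that make it cannot be told apart, and because values are relative to the library, a change in total RNA is not measured.

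The hydrolases and the pump moved in different proportions. Of the 37 genes, 17 (45.9%) were higher and 13 (35.1%) lower on day 5, and 7 were not called. Among hydrolases and cofactors 10 of 17 were higher and 6 lower, with a median log2 fold change of 0.59, whereas among pump proteins 2 of 11 were higher and 5 lower, with a median of -0.22. The membrane proteins had 3 of 6 higher and 1 lower, with a median of 0.28. The median of all genes tested was 0.01. No test of a difference between these groups of genes was made. The libraries of the days did not overlap for 18 of the 37 genes in the higher direction and 15 in the lower, against 33.4% and 31.7% of all genes tested (65.0% in either direction). Of those called, 11 had a log2 fold change of at least 1 and 2 of at most -1, against 10.2% and 7.60% of all genes tested.

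**Figure D1:**
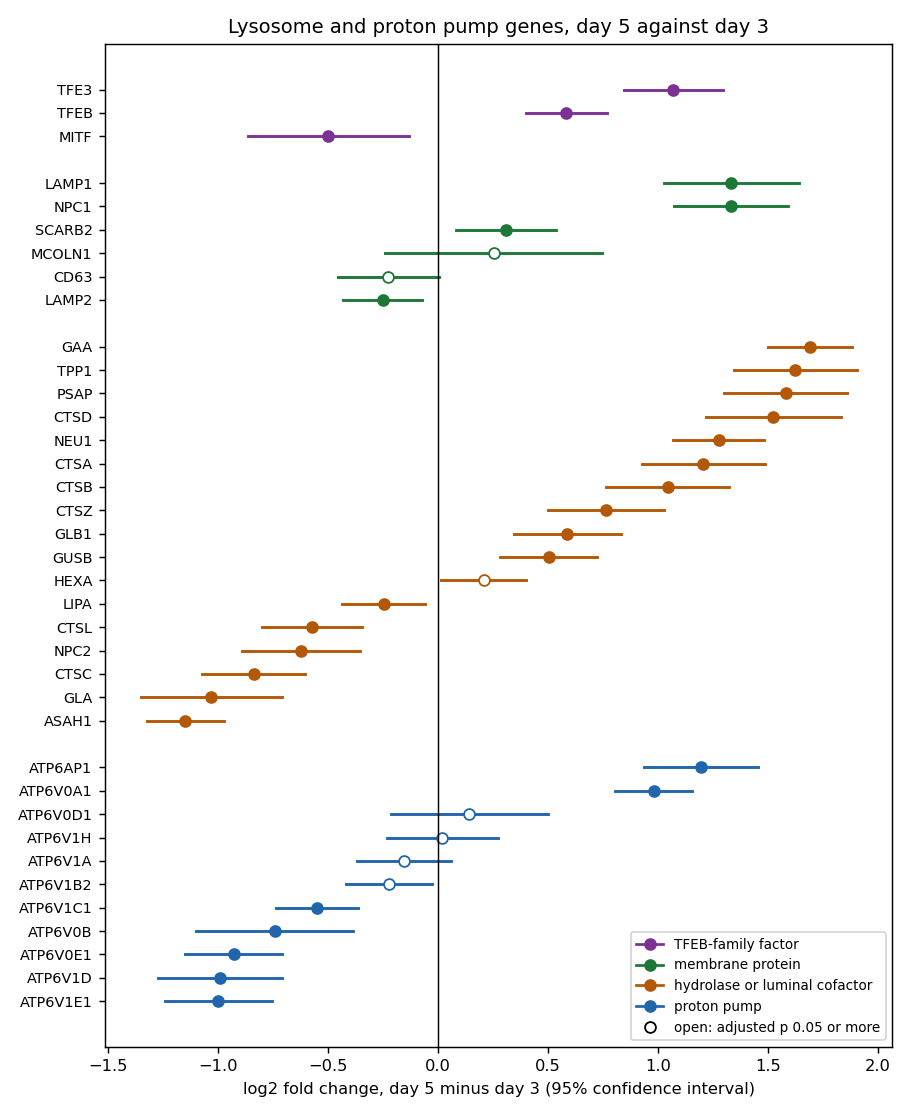
Log2 fold change of each of the 37 genes, day 5 minus day 3, by role, with bars for the 95% confidence interval and open points for genes with an adjusted p of 0.05 or more. The hydrolases span -1.15 (ASAH1) to 1.69 (GAA), and most pump subunits lie to the left of 0 while ATP6V0A1 and ATP6AP1 lie at 0.98 and 1.20.

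Of the factors, TFE3 was the most abundant and rose, TFEB rose less, and MITF was the lowest and fell. TFE3 (GRCh38 chrX:49028726-49043410, minus strand) had values of 360.0, 414 and 379.9 on day 3 and 864, 793 and 767 on day 5. The days were well separated, and the fold was 2.102 (log2 fold change 1.07, SE 0.09, adjusted p = 0.000344). TFEB (chr6:41683978-41736259, minus strand) had values of 93.9, 87.8 and 87.9 on day 3 and 132, 140.4 and 133 on day 5, a 1.503-fold difference (log2 fold change 0.58, SE 0.08, adjusted p = 0.0012). Its 3 libraries lay close together on each day. The TFEB transcript has a GC content of 64.7%, among the highest of the 37, and after each library was corrected for GC content and length its log2 fold change was -0.08 (adjusted p = 0.489), while that of TFE3 was 0.49. MITF (chr3:69739456-69968336, plus strand) had values of 58.8, 67.4 and 68.0 on day 3 and 42.3, 39.7 and 55.9 on day 5 (log2 fold change -0.50, SE 0.15, adjusted p = 0.0303). All day 5 values of MITF were below those of day 3, but day 5 replicate 3 came within a few units of day 3 replicate 1. This call was lost without any of 4 libraries: adjusted p = 0.0834 without day 3 replicate 2, 0.0752 without day 3 replicate 3, 0.0867 without day 5 replicate 1 and 0.0859 without day 5 replicate 2.

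Per kilobase of transcript, TFE3 made up 69.1% ± 1.66 on day 3 to 78.4% ± 1.44 on day 5 of the summed level of the 3 factors, TFEB 22.9% ± 1.85 on day 3 to 18.5% ± 1.12 on day 5 and MITF 7.99% ± 0.456 on day 3 to 3.07% ± 0.684 on day 5. The sum itself went from 169 ± 7.83 to 313 ± 13.6 normalized units per kilobase (SD, n = 3). So the order TFE3, TFEB, MITF was the same on both days, with TFE3 ahead by more on day 5. These shares were looked at after the values were known and are given without a test.

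**Figure D2:**
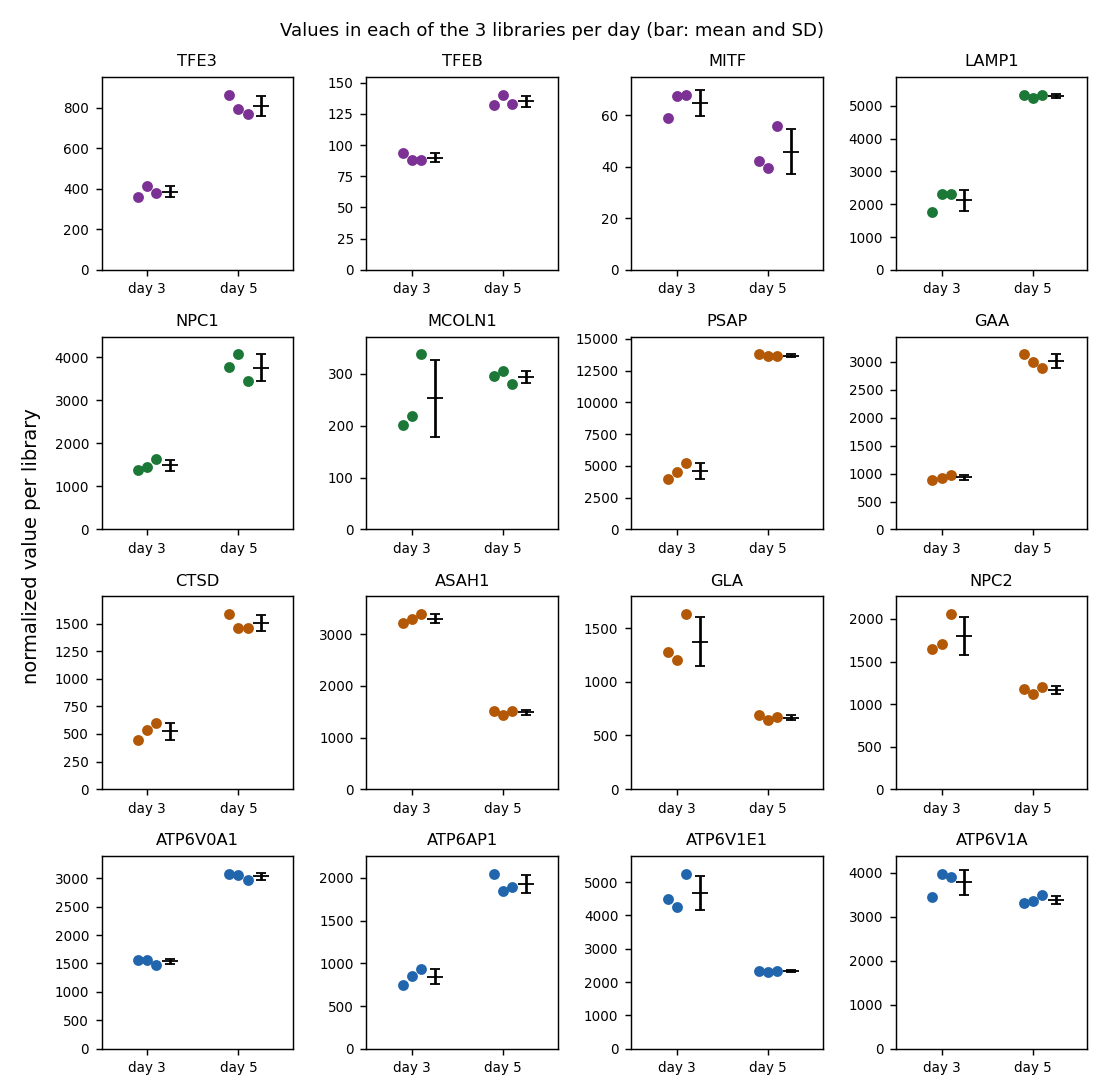
Normalized value in each library for 16 of the genes, with replicates 1 to 3 from left to right and a bar for the mean and SD of each day. TFE3, LAMP1, PSAP and GAA are separated between days, MCOLN1 and ATP6V1A overlap, and day 3 replicate 3 is the highest day 3 library of several genes.

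The sequences below show the letters that factors of this family are known to bind, the palindromic E-box CACGTG and its extended form TCACGTGA, as they stand in the promoters of these genes. RefSeq (GRCh38.p14) promoter sequences, from 250 bases before to 50 bases after the gene's start, matched 27 of the 37 genes, and 9 of them held CACGTG. One 30-base window around a match is given per gene, 5′ to 3′ on the gene's strand, with the longer of the matched forms in capitals.
GAA, chr17:80101538-80101567, plus strand: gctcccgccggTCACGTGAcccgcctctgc
MCOLN1, chr19:7522598-7522627, plus strand: gggctaccgggTCACGTGAccgaggcacag
LAMP1, chr13:113297199-113297228, plus strand: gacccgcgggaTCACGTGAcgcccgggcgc
CTSA, chr20:45891298-45891327, plus strand: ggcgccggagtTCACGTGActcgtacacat
ATP6V0D1, chr16:67481199-67481228, minus strand: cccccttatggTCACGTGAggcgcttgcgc
CTSD, chr11:1763957-1763986, minus strand: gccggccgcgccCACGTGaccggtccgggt
NEU1, chr6:31862930-31862959, minus strand: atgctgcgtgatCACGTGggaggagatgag
CD63, chr12:55729172-55729201, minus strand: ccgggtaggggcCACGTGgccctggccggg
ATP6V0B, chr1:43974891-43974920, plus strand: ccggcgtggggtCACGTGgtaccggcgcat
LAMP1 held 6 matches, and GAA, MCOLN1, CTSA and ATP6V0B held 2 each. Each motif is its own reverse complement, so both strands were searched together, and the longer form contains the shorter. Counted by gene, with a match in any of its promoter sequences, CACGTG was in 33.3% of the 27 genes and 12.3% of the 11170 tested genes with a promoter sequence. Counted by single promoter, which is not the same measure, it was in 7.26% of all 35116. TCACGTGA was in 5 of the 27 genes (18.5%), against 2.12% of the tested genes and 0.980% of single promoters. Of genes with CACGTG, 5 were among the 15 higher on day 5 that had a promoter sequence, 1 (ATP6V0B) was among the 9 lower and 3 (MCOLN1, CD63 and ATP6V0D1) were the 3 that were not called. A match describes the letters only, and binding was not measured here.

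Among the membrane proteins the rises of LAMP1 and NPC1 were of similar size, each well above 2-fold. LAMP1, a heavily glycosylated protein of the limiting membrane (chr13:113297239-113323672, plus strand), had values of 1755, 2298 and 2301 on day 3 and 5327, 5228 and 5342 on day 5, a 2.502-fold rise (log2 fold change 1.33, SE 0.13, adjusted p = 0.000443). NPC1, which exports cholesterol from the lysosome and is mutated in Niemann-Pick disease type C (chr18:23506184-23586506, minus strand), had values of 1388, 1449.6 and 1636 on day 3 and 3773, 4063 and 3435 on day 5, a 2.52-fold rise (log2 fold change 1.33, SE 0.11, adjusted p = 0.000289). For both genes the lowest day 5 library was above the highest day 3 library. SCARB2, the receptor that carries glucocerebrosidase to the lysosome, went from 2850.3 ± 90.9 to 3537 ± 322 (SD, n = 3; log2 fold change 0.31, SE 0.09, adjusted p = 0.0314).

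LAMP2, the paralog of LAMP1 with roles in autophagy, moved the other way by a small amount, with values of 2679, 2729 and 2583 on day 3 and 2149, 2302 and 2265 on day 5 (log2 fold change -0.25, SE 0.07, adjusted p = 0.0282). CD63, a tetraspanin of late endosomes and exosomes, had values of 5389.9, 5774 and 6504 on day 3 and 5126, 4989 and 4948 on day 5 and was not called (log2 fold change -0.23, SE 0.09, adjusted p = 0.0846, 95% interval of the log2 fold change -0.46 to 0.0037) although the days did not overlap. The calls for SCARB2, LAMP2 and CD63 were near the threshold and changed when 1 library was left out, which also leaves fewer libraries to test. Over these fits the log2 fold change was 0.24 to 0.36 for SCARB2, -0.27 to -0.22 for LAMP2 and -0.29 to -0.15 for CD63. For SCARB2 the adjusted p was 0.0754 without day 3 replicate 1, 0.075 without day 3 replicate 2, 0.0719 without day 5 replicate 2 and 0.0843 without day 5 replicate 3. For LAMP2 it was 0.0553 without day 3 replicate 1, 0.0933 without day 3 replicate 2, 0.0957 without day 5 replicate 1, 0.0648 without day 5 replicate 2 and 0.0672 without day 5 replicate 3. The LAMP2 call was also lost with library totals (adjusted p = 0.144) and with no filter (0.156), and the SCARB2 call with no filter (0.135). Both calls were kept by edgeR (adjusted p = 0.00315 for LAMP2 and 0.00183 for SCARB2) and by DESeq2 (0.00428 and 0.00114). CD63 was called lower without day 3 replicate 1 (adjusted p = 0.0461), and by the count tests edgeR (adjusted p = 0.00613) and DESeq2 (adjusted p = 0.018).

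MCOLN1, a calcium-permeable channel through which lysosomes release cations, had values of 202, 218 and 337 on day 3 and 295, 304 and 281 on day 5 and was not called (log2 fold change 0.25, SE 0.20, adjusted p = 0.322, 95% interval -0.24 to 0.75). Day 3 replicate 3 stood above all other libraries for this gene. Without it the log2 fold change was 0.48 (adjusted p = 0.00596).

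Proteases of the lumen split into those that rose and those that fell. CTSD, the main aspartic protease of the lysosome (chr11:1752752-1764573, minus strand), had values of 445, 534 and 598 on day 3 and 1588, 1462 and 1462 on day 5, a 2.86-fold rise (log2 fold change 1.52, SE 0.13, adjusted p = 0.000315), and its log2 fold change corrected for GC content and length was 0.94. TPP1, an aminopeptidase that removes tripeptides, had values of 728, 858 and 662 on day 3 and 2342, 2350.4 and 2204 on day 5, a 3.07-fold rise (log2 fold change 1.62, SE 0.11, adjusted p = 0.000234). Exon bases of CTSD (22.9%) and of TPP1 (11.6%) are shared with another gene on the same strand, so reads there could be split between genes. The serine carboxypeptidase CTSA, which also shields NEU1 and GLB1 from degradation, had values of 1378, 1502 and 1778 on day 3 and 3616, 3679 and 3399.5 on day 5 (log2 fold change 1.21, SE 0.11, adjusted p = 0.000447). The cysteine protease CTSB, the highest of the cathepsins in normalized value, had values of 3454, 4000.2 and 4536 on day 3 and 8069, 8227 and 8287 on day 5 (log2 fold change 1.04, SE 0.11, adjusted p = 0.000698), and CTSZ, a carboxypeptidase, rose 1.69-fold from 1408 ± 171 to 2379 ± 69.8 (log2 fold change 0.76, SE 0.11, adjusted p = 0.00171). For all 5 genes the days did not overlap.

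CTSL and CTSC fell. CTSL, an endopeptidase of the same papain-like group as CTSB, had values of 1876, 1767 and 2067 on day 3 and 1245, 1234 and 1358 on day 5 (log2 fold change -0.57, SE 0.09, adjusted p = 0.00289). CTSC, the dipeptidyl peptidase that activates granule serine proteases in leukocytes, had values of 1539, 1687 and 1697 on day 3 and 966, 831 and 961 on day 5 (log2 fold change -0.84, SE 0.10, adjusted p = 0.000803). Over 12 cathepsin genes, the level per kilobase summed to 5715 ± 537 on day 3 and 8199.6 ± 14.1 on day 5, and its makeup shifted. CTSL went from 20.2% ± 1.30 on day 3 to 9.43% ± 0.492 on day 5 of that sum, CTSC from 15.4% ± 0.895 on day 3 to 5.99% ± 0.492 on day 5, CTSB from 18.7% ± 0.914 on day 3 to 26.8% ± 0.371 on day 5 and CTSA from 14.6% ± 0.540 on day 3 to 23.4% ± 0.997 on day 5. These shares were likewise looked at after the values were known.

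Of 6 genes for enzymes that cleave sugars, 4 (GAA, NEU1, GLB1 and GUSB) were called higher, 1 (GLA) was called lower and 1 (HEXA) was not called. Of all genes tested, 29.3% were called higher and 27.6% lower. GAA, the acid alpha-glucosidase that degrades glycogen and is deficient in Pompe disease (chr17:80101533-80119881, plus strand), had values of 891, 925 and 975 on day 3 and 3132, 3002 and 2884 on day 5. This 3.23-fold rise was the largest of the 37 genes (log2 fold change 1.69, SE 0.08, adjusted p = 0.00014). The GAA transcript has a GC content of 64.8%, and corrected for GC content and length its log2 fold change was 0.87, behind TPP1 (1.41) and PSAP (1.30). NEU1, a sialidase, had values of 328, 361 and 361 on day 3 and 810.1, 839 and 899 on day 5 (log2 fold change 1.28, SE 0.08, adjusted p = 0.00022). GLB1, the beta-galactosidase, rose 1.5-fold from 714 ± 71.5 to 1071 ± 48.0 (log2 fold change 0.59, SE 0.10, adjusted p = 0.00339). CTSA, NEU1 and GLB1, whose proteins form one complex, were each called higher, as were 29.3% of all genes tested. They were not a list of their own. GUSB, the beta-glucuronidase, rose 1.42-fold from 712 ± 52.7 to 1008 ± 51.4 (log2 fold change 0.50, SE 0.09, adjusted p = 0.00427), and after the correction its log2 fold change was 0.22 (adjusted p = 0.0348). HEXA, the alpha subunit of beta-hexosaminidase, had values of 897, 795 and 862 on day 3 and 978, 986 and 984 on day 5 and was not called (log2 fold change 0.21, SE 0.08, adjusted p = 0.0645, 95% interval 0.02 to 0.40), and after the correction its log2 fold change was -0.10. GLA, the alpha-galactosidase deficient in Fabry disease, fell, with values of 1282, 1205 and 1632 on day 3 and 691, 639.9 and 668 on day 5 (log2 fold change -1.03, SE 0.13, adjusted p = 0.00112). Its highest day 5 library was far under its lowest day 3 library.

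Proteins that act on lipids went in both directions. PSAP, the precursor of the saposins that present sphingolipids to hydrolases (chr10:71816298-71851251, minus strand), had values of 4000.1, 4561 and 5251 on day 3 and 13789, 13671 and 13626 on day 5, a 2.97-fold rise (log2 fold change 1.58, SE 0.11, adjusted p = 0.000235). On day 5 it had the highest level per kilobase of the 37 genes, and on day 3 it ranked 5. ASAH1, the acid ceramidase, had values of 3218, 3289.9 and 3394 on day 3 and 1522, 1438 and 1509 on day 5 (log2 fold change -1.15, SE 0.07, adjusted p = 0.0002), the largest fall among the 37 genes. NPC2, a soluble protein that hands cholesterol to NPC1, had values of 1644, 1701 and 2058 on day 3 and 1181, 1113 and 1203 on day 5 (log2 fold change -0.62, SE 0.11, adjusted p = 0.00406), the opposite direction to NPC1, and its log2 fold change corrected for GC content and length was -0.30 (adjusted p = 0.0485). LIPA, which hydrolyses cholesteryl esters and triglycerides, differed by little, with values of 1764, 1842 and 1830.1 on day 3 and 1471, 1618 and 1495 on day 5 (log2 fold change -0.25, SE 0.08, adjusted p = 0.0349). Its call was lost without day 3 replicate 2 (adjusted p = 0.104), day 3 replicate 3 (0.0534), day 5 replicate 1 (0.11) or day 5 replicate 3 (0.0982), with library totals (0.12) and with no filter (0.172), and its direction turned after correction for GC content and length (0.03).

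Of the pump proteins, the a1 subunit and an accessory protein rose while several core subunits fell. ATP6V0A1, an isoform of the large V0 subunit that lines the proton path (chr17:42458844-42522582, plus strand), had values of 1563, 1567 and 1480.0 on day 3 and 3078, 3052 and 2966 on day 5, a 1.97-fold rise (log2 fold change 0.98, SE 0.07, adjusted p = 0.00024). ATP6AP1, an accessory protein used in V0 assembly, had values of 752, 848 and 931 on day 3 and 2049, 1848 and 1888 on day 5, a 2.29-fold rise (log2 fold change 1.20, SE 0.11, adjusted p = 0.000372). No day 3 library reached the lowest day 5 library for either gene.

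In the V1 sector, ATP6V1E1, part of the peripheral stalks (chr22:17592136-17628749, minus strand), had values of 4504, 4260.4 and 5254 on day 3 and 2345, 2309.7 and 2338 on day 5, 2.00 times as high on day 3 (log2 fold change -0.997, SE 0.10, adjusted p = 0.00052). ATP6V1D, part of the central rotor, had values of 2153, 2114 and 2629.6 on day 3 and 1070.4, 1185 and 1202 on day 5 (log2 fold change -0.99, SE 0.11, adjusted p = 0.000823). ATP6V1C1, which joins the stalks to the rest of the pump, went from 6966 ± 329 to 4753 ± 136 (log2 fold change -0.55, SE 0.08, adjusted p = 0.00158). These 3 were lower in every day 5 library than in any day 3 library. The catalytic subunit ATP6V1A had values of 3451, 3979 and 3908 on day 3 and 3321, 3355 and 3489.6 on day 5 and was not called (log2 fold change -0.16, SE 0.09, adjusted p = 0.175, 95% interval -0.37 to 0.06). ATP6V1B2, its partner in the ATP-hydrolysing ring, had values of 2757, 2822 and 3096 on day 3 and 2527, 2473 and 2431 on day 5 and was not called (log2 fold change -0.22, SE 0.08, adjusted p = 0.0555, 95% interval -0.42 to -0.03), although the days did not overlap. It was called lower by edgeR (adjusted p = 0.00497) and DESeq2 (adjusted p = 0.0167), and ATP6V1A by edgeR (adjusted p = 0.0406). ATP6V1H, a regulatory subunit, had values of 1033, 1059 and 1264 on day 3 and 1082, 1156 and 1154 on day 5 (log2 fold change 0.02, SE 0.10, adjusted p = 0.878, 95% interval -0.23 to 0.27).

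In the V0 sector, ATP6V0B, a subunit of the proteolipid ring, had values of 1946, 1862 and 2475 on day 3 and 1363, 1093 and 1283 on day 5 (log2 fold change -0.74, SE 0.15, adjusted p = 0.00626), and ATP6V0E1, a small membrane subunit, had values of 2268, 2235 and 2614 on day 3 and 1228, 1221 and 1279.9 on day 5 (log2 fold change -0.93, SE 0.09, adjusted p = 0.000487). Both were lower in every day 5 library. ATP6V0D1, which couples the ring to the rotor, had values of 766, 818 and 1070.3 on day 3 and 1035, 966 and 902 on day 5 and was not called (log2 fold change 0.14, SE 0.15, adjusted p = 0.436, 95% interval -0.21 to 0.50). As for MCOLN1, day 3 replicate 3 was its highest library, and without it the log2 fold change was 0.29 (adjusted p = 0.0463).

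Of 19 genes tested from a further pump list, 2 were higher and 7 lower, with a median log2 fold change of -0.09, and 2 and 8 after correction for GC content and length. This list holds subunits and also proteins that are not, among them VMA21, TMEM199 and ROGDI, which were called lower. Taken with the 11 above, 4 of 30 genes of the pump lists were higher and 12 lower without the correction. Of all genes tested, 29.3% were higher and 27.6% lower, and of all genes so corrected 21.7% and 28.2%. The stalk subunit ATP6V1G1 fell (log2 fold change -1.04, SE 0.10, adjusted p = 0.000453), as did the V1 subunit ATP6V1F (log2 fold change -0.74, SE 0.14, adjusted p = 0.00535). TCIRG1, the a3 isoform, rose (log2 fold change 0.55, SE 0.08, adjusted p = 0.00193) and ATP6V0A2, the a2 isoform, fell (log2 fold change -0.50, SE 0.08, adjusted p = 0.00327). Per kilobase, ATP6V0A1 went from 46.1% ± 0.995 on day 3 to 61.4% ± 0.915 on day 5 of the 4 a isoforms, ATP6V0A2 from 28.4% ± 0.583 on day 3 to 13.6% ± 0.572 on day 5, TCIRG1 from 25.04% ± 0.762 on day 3 to 24.7% ± 0.402 on day 5 and ATP6V0A4 from 0.457% ± 0.346 on day 3 to 0.272% ± 0.0860 on day 5. Thus a1 was the main a isoform on both days, a2 was second on day 3, and a3 was second on day 5. ATP6V0C, another ring subunit, was listed at 6.15 to 10.5 in every library and was not tested, and 60.9% of its exon bases are shared with another protein-coding gene on the same strand.

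**Figure D3:**
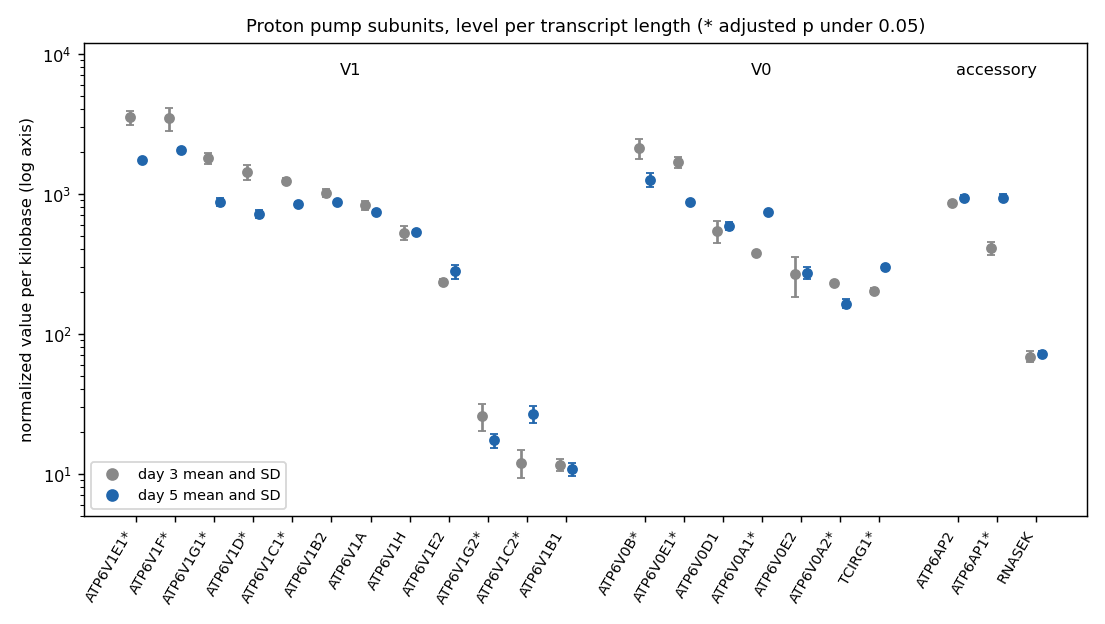
Mean normalized value per kilobase of transcript with SD for the pump subunits tested, day 3 in grey and day 5 in blue, on a log axis, with asterisks for an adjusted p under 0.05. ATP6V1E1 falls from 3505 to 1749 per kilobase and ATP6V0A1 rises from 374 to 738, while ATP6V1A, ATP6V1B2 and ATP6V1H stay close together.

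Per kilobase of transcript, the 37 genes spanned a wide range. CD63 (5757 on day 3 and 4908 on day 5), PSAP (1675 and 4984) and ATP6V1E1 (3505 and 1749) were the highest over both days, and MCOLN1 (121 and 141), TFEB (38.5 and 57.9) and MITF (13.5 and 9.58) the lowest. On day 3 the 4 highest genes were CD63, ATP6V1E1, NPC2 and ATP6V0B, and on day 5 they were PSAP, CD63, CTSB and LAMP1. CTSB moved from rank 11 to 3, CTSA from 16 to 5, LAMP1 from 18 to 4 and GAA from 30 to 14, whereas ATP6V1D moved from 7 to 21 and ASAH1 from 9 to 25. Order within a day was not tested, and neighbours could be close: on day 5 PSAP was at 4984 ± 30.7 per kilobase and CD63 at 4908 ± 91.5 (SD, n = 3). Length is that of the canonical transcript of each gene, so order and shares between genes depend on that choice.

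Other genes of the lysosome were read from lists of hydrolases, membrane proteins, sorting factors, nutrient signalling proteins and factor targets. Of 36 other hydrolases tested, 20 were higher and 4 lower (median log2 fold change 0.38), so that over all 53 hydrolases 30 were higher and 10 lower. With each library corrected for GC content and length, 13 of the 36 were higher and 5 lower (median 0.13), against 21.7% and 28.2% of all genes so corrected. Named by rule for size, IDS, which cuts sulfate from glycosaminoglycans (log2 fold change 1.64, SE 0.09, adjusted p = 0.000172), and PLBD2, a phospholipase B-like protein (log2 fold change 1.59, SE 0.10, adjusted p = 0.000195), rose, and PPT1, a depalmitoylating enzyme (log2 fold change -0.95, SE 0.09, adjusted p = 0.000455), and CTSV, a close relative of CTSL (log2 fold change -0.87, SE 0.09, adjusted p = 0.000591), fell. IDS shares 75.0% of its exon bases with another gene on the same strand. Of 12 sorting genes 7 were higher and 2 lower (median 0.28), but after the same correction 1 was higher and 5 lower (median -0.09). The 2 receptors that carry mannose 6-phosphate-tagged hydrolases went in opposite directions: IGF2R rose (log2 fold change 1.58, SE 0.11, adjusted p = 0.000222) and M6PR fell (log2 fold change -0.59, SE 0.10, adjusted p = 0.00288). GGA1, a coat adaptor for these receptors, rose (log2 fold change 0.70, SE 0.07, adjusted p = 0.000578), and GNPTAB, of the enzyme that makes the tag, fell (log2 fold change -0.35, SE 0.10, adjusted p = 0.0226). These values are without the correction. With 1 sorting gene still higher after it, IGF2R and GGA1 did not both keep their call.

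Other membrane proteins were evenly divided, with 11 of 33 (33.3%) higher and 11 (33.3%) lower (median 0.04). These shares are near the 29.3% and 27.6% of all genes tested. After the correction 5 were higher and 11 lower (15.2% and 33.3%), against 21.7% and 28.2% of all genes. ATP13A2, a polyamine exporter, rose (log2 fold change 1.45, SE 0.11, adjusted p = 0.000283), as did SIDT2 (log2 fold change 0.99, SE 0.07, adjusted p = 0.000233), and OSTM1, the partner of the chloride exchanger CLCN7, fell (log2 fold change -0.77, SE 0.10, adjusted p = 0.00117), as did the amino acid sensor SLC38A9 (log2 fold change -0.63, SE 0.09, adjusted p = 0.00154). Of 18 nutrient signalling genes 6 (33.3%) were higher and 7 (38.9%) lower (median -0.02), and 4 and 9 after the correction. TSC2, a brake on mTORC1, rose (log2 fold change 1.14, SE 0.09, adjusted p = 0.000283), as did the Rag GTPase RRAGD (log2 fold change 0.80, SE 0.09, adjusted p = 0.000867). All 5 LAMTOR genes, which encode the scaffold that holds the Rag GTPases at the lysosome, were lower (median -0.84), against 27.6% of all genes tested. They were drawn from the 18 nutrient signalling genes and were not a list of their own. LAMTOR4 (log2 fold change -0.97, SE 0.14, adjusted p = 0.00173) and LAMTOR3 (log2 fold change -0.84, SE 0.10, adjusted p = 0.000816) were named by the rule. The LAMTOR transcripts had a median length of 621 bases against 2360.5 over all genes tested, but that of LAMTOR3 has 4163. Their median GC content was 56.1%, against 48.2% over all genes tested. After the correction for GC content and length all 5 were still lower (median -0.69). Of 8 other factor targets and partners tested, 5 were higher and 1 lower (median 0.33), and 2 and 1 after the correction. Among them were VPS18, part of complexes that tether endosomes and lysosomes (log2 fold change 0.70, SE 0.12, adjusted p = 0.00407) and the autophagy receptor SQSTM1 (log2 fold change 0.61, SE 0.14, adjusted p = 0.0103), both higher before the correction.

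**Figure D4:**
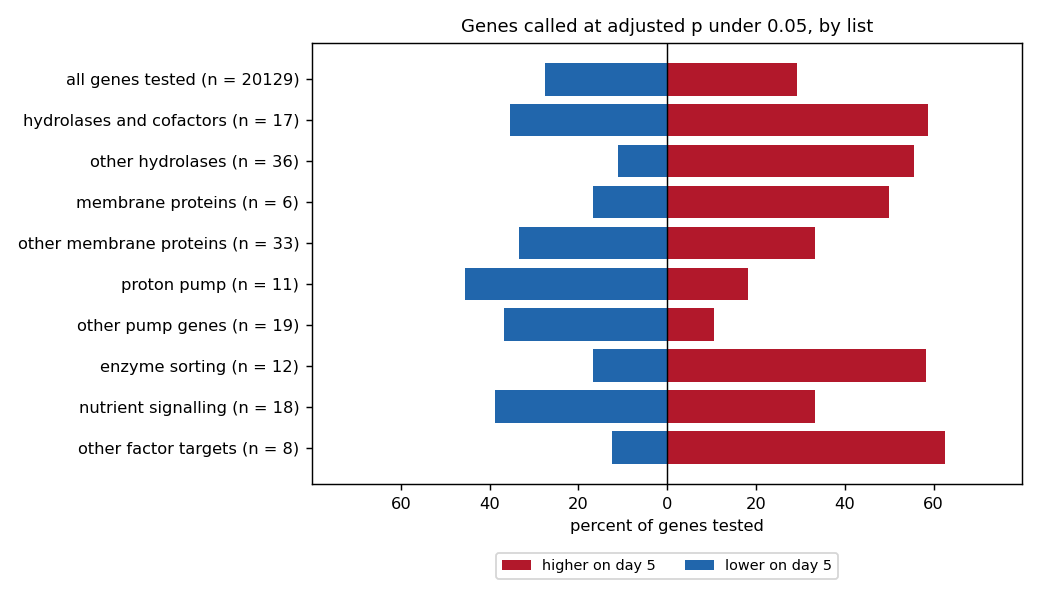
Percent of the tested genes in each list that were called higher (red, right) or lower (blue, left) on day 5, with all genes tested at the top (29.3% higher and 27.6% lower). The hydrolase lists, in and outside the 37, have more than 50% called higher. Both pump lists have more called lower than higher.

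GC content and length of the transcript moved with the direction of the calls. The 17 genes that were higher had a median GC content of 55.2% and a median length of 2748 bases, and the 13 that were lower had 43.8% and 1654 bases. Over all genes called, the medians were 55.1% and 3551 bases for higher and 43.0% and 1921 bases for lower. Of the 20 genes with a GC content above 50%, a limit set after the values were seen, 15 were higher and 1 (ATP6V0B) lower, and of the other 17, 2 (NPC1 and SCARB2) were higher and 12 lower. Over all genes tested, 46.6% of those above 50% were higher and 12.6% lower, against 16.2% and 39.98% of the rest. With each library corrected for GC content and length, 16 of the 37 genes were called higher and 12 lower, with TFEB and LIPA no longer called. Of all genes so corrected, 21.7% were called higher and 28.2% lower. Among hydrolases and cofactors 10 of 17 were then higher and 5 lower (median 0.48), and among pump proteins 2 of 11 were higher and 5 lower (median -0.18). The corrected log2 fold changes were nearer 0 for CTSZ at 0.49, ATP6V1D at -0.60 and ATP6V0E1 at -0.58, and likewise for LAMP1 at 1.005, NPC1 at 1.07, ATP6V0A1 at 0.69, ATP6V1E1 at -0.72 and ASAH1 at -0.90. They were farther from 0 for ATP6V0B at -0.91 and SCARB2 at 0.32. The median of all genes was -0.05 after the correction.

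**Figure D5:**
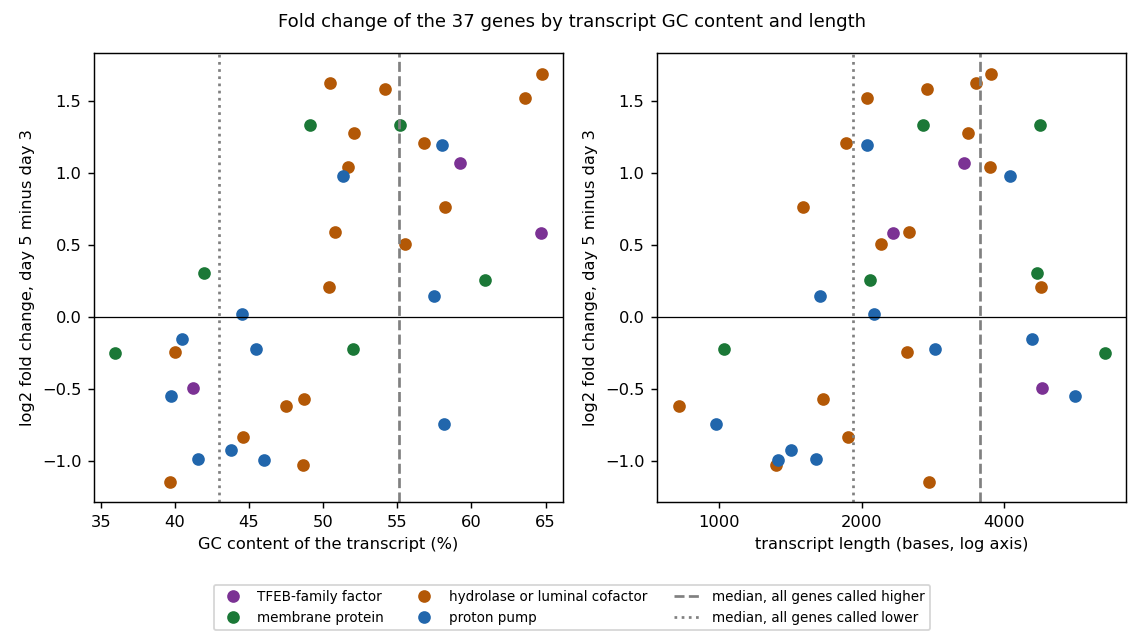
Log2 fold change of the 37 genes, day 5 minus day 3, against the GC content (left) and the length in bases on a log axis (right) of the canonical transcript, coloured by role, with grey lines for the medians of all genes called higher (dashed) and lower (dotted). Most points above 0 lie at a GC content over 50%, and most points below 0 lie under it.

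Libraries differed within days. Day 3 replicate 3 was the highest of the 3 day 3 libraries for 29 of the 37 genes (78.4%), against 49.7% of all genes tested. Its normalized values also had the highest total, 38942641, against 34008467 for day 3 replicate 1 and 35043456 for day 3 replicate 2. The part of this scaling in the values of the 37 genes was not tested. Log2 values correlated at 0.988 to 0.993 (Pearson's r over genes, which are not independent) between libraries of a day and at 0.955 to 0.964 between days. The epithelial label was checked on marker genes. Of 6 epithelial markers 5 were higher on day 5, against 29.3% of all genes tested, and EPCAM, at 7227 ± 257 and 7236 ± 173 (SD, n = 3), was not called. CDH1, the cell adhesion protein E-cadherin, rose from 637 ± 57.1 to 3940.0 ± 133 (log2 fold change 2.63, SE 0.09, adjusted p = 0.0001). Of 5 leukocyte markers 1 (LYZ) passed the filter, with means of 6.50 and 14.2, close to the limit of 10. It was called higher (log2 fold change 1.04, SE 0.22, adjusted p = 0.00823). PTPRC, which defines leukocytes, was near 0 in every library. Of 5 fibroblast markers COL1A1 rose from 521 ± 42.1 to 1129 ± 33.2 (log2 fold change 1.12, SE 0.09, adjusted p = 0.000289). COL1A2, COL3A1 and PDGFRB were between 2.84 and 31.1 in every library, and DCN was at 0 in 5 of 6. The part of these markers in the differences above was not tested.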

How the data were processed

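RNA was extracted from HCT116 cells with TRIzol, and per the study's methods whole cell RNA was depleted of ribosomal RNA, made into strand-marked libraries with molecular identifiers and sequenced as paired reads. Reads were mapped to hg38 with the ENSEMBL 99 annotation and counted on the gene's strand. The submitters' processing notes also name bcl2fastq, FastQC 0.11.8 and MultiQC 1.7. The deposited values are a normalized signal. The study's methods name CLC Genomics Workbench and TMM normalization, whereas the columns of the table are laid out as DESeq2 writes them, so how the authors set the library factors is uncertain. The values themselves are multiples of one number per library, that is, counts divided by one factor. The table also holds the authors' mean, fold change and p-values, which were not used. Of the values, 100% came out as whole reads (tolerance 0.02), which gave the depth of each library. Small RNA tables were not used, and day 7 was not analysed here.

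Values were tested with limma 3.58.1 (R 4.3.3) on log2(value + 1) over genes that reached 10 in 3 or more of the 6 libraries, with Benjamini-Hochberg adjustment over 20129 genes and a threshold of 0.05. A fold change on this scale understates the change of low genes. On the recovered reads, edgeR 4.0.16 called 12280 genes and DESeq2 1.42.0 called 11131, against 11450 with limma. On simulated data for day 5 against day 3 over 20055 genes, limma called 119 of 192 genes (62.0%) changed 2-fold and 10 unchanged genes. No other gene was changed there, whereas 56.9% of genes were called in the real data. The adjusted p threshold therefore acts differently, and these shares do not carry over to the real comparison. Alternatives were library totals, no filter, a pseudocount of 0.1, a term for replicate number, both count tests and each library left out in turn. A loess correction for GC content and then length (span 0.5) was added after the data were seen. Gene positions, length and GC content of canonical transcripts came from GENCODE 44 (GRCh38), and promoters from RefSeq (GRCh38.p14). The 37 genes and all lists were chosen with earlier results of these data known. All 37 are named, and from each other list up to 2 genes with the largest rise and 2 with the largest fall. Those are called genes with no overlap between days and a mean of at least 10 CPM. Isoforms, markers, the LAMTOR group and genes near 0 were named besides, after their values were seen. With 3 libraries per day an exact permutation test cannot go below 0.1, so none was used.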

Additional observations from a re-analysis of the deposited data

How the results depend on the processing

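Of the 37 genes, 25 kept their direction and their call under all 13 alternatives. The genes called higher and lower numbered 18 and 11 with library totals, 16 and 10 with no filter, 17 and 13 with a pseudocount of 0.1, 18 and 15 with edgeR, 17 and 14 with DESeq2, and 16 and 12 with the GC and length correction. Leaving out 1 library gave 16 to 19 higher and 10 to 13 lower, and 9780 to 11300 genes called over the table. The GC and length correction moved the share of higher among all calls from 51.5% to 43.5% (4190 higher and 5439 lower). Under it the log2 fold change of TFEB was -0.083, of MCOLN1 -0.24, of HEXA -0.10, of LIPA 0.026 and of ATP6V0D1 -0.12, none of them called. ATP6V1H, which was not called, ranged from -0.034 without day 3 replicate 1 and -0.016 without day 3 replicate 2 to 0.112 without day 3 replicate 3. LAMP2 and LIPA were not called with library totals (adjusted p = 0.144 and 0.12) or with no filter (0.156 and 0.172), nor was SCARB2 with no filter (0.135). With edgeR and with DESeq2, LAMP2, LIPA and SCARB2 kept their calls. MITF was not called with no filter (adjusted p = 0.0981), edgeR (0.0503) or DESeq2 (0.155), and HEXA was called with library totals (0.0431) and edgeR (0.0391). The causes were not tested.

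Libraries that share a replicate number did not deviate together: the correlations of their deviations from the day means were -0.01, 0.03 and 0.02, and not every library correlated best with its own number, so the numbers were not taken to pair the samples. With the replicate number as a block 10533 genes were called, and 16 of the 37 genes were higher and 11 lower, with LAMP2, SCARB2 and LIPA no longer called. The limits are 3 libraries per day from 1 cell line, and a depth at which low genes such as MITF rest on few reads.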
